A study of Homo sapiens with 22 samples.

Results

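Isolated CTCF sites were the peaks of the wild-type CTCF list whose summit lay more than 100 kb from every other CTCF summit on the same chromosome. The distance was taken between summits, the base of highest signal that the authors gave for each peak. Of 59138 CTCF peaks, 1525 met the rule, which was 2.58% of the list (95% Wilson interval 2.45% to 2.71%). The remaining 57613 peaks, called the other CTCF sites here, were the comparison. The members were chosen by the summit positions of that list, so CTCF peak height and spacing are given as a description with no test.

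CTCF is a zinc finger protein that binds a long DNA motif and halts cohesin, the ring complex that extrudes chromatin loops, when cohesin meets it from one side. Pairs of CTCF sites that face each other form the anchors of many loops and domain borders. Whether isolated sites anchor loops was not measured here. RAD21 is the cleavable subunit of the ring, and STAG1 and STAG2 are alternative subunits that contact CTCF. NIPBL activates cohesin and is needed for loop extrusion, PDS5A binds the ring in place of NIPBL, and WAPL opens it and releases it from DNA.

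The cells were hTERT RPE-1, a telomerase-immortalised line of human retinal pigment epithelium. Chromatin immunoprecipitation sequencing gave 12 peak lists among 22 samples, and the other 10 samples were inputs. Wild-type cells, with no treatment named, gave the CTCF and the WAPL library. Clone A2 carried mCherry-P2A-FKBP12(F36V)-NIPBL and clone D7 carried mGreenLantern-P2A-FKBP12(F36V)-NIPBL, in which the FKBP12 domain lets dTAGV-1 direct NIPBL to degradation. Each clone gave 3 RAD21 libraries, one from cells held 24 h in the solvent DMSO and the others from cells given dTAGV-1 for 4 h or 24 h. PDS5A came from clone D7 after 24 h of DMSO, STAG1 and STAG2 from clone D7, and the HA tag from clone A2, with no treatment named for the last 3 proteins. The cells were cycling and not synchronised, and the extent of NIPBL loss was not measured in these files. Each group held 1 library and each genotype 1 clone, so no value has a replicate error and no p-value is given. The intervals below cover counting error only. The CTCF sites are those of wild-type cells, so RAD21 in the clones was read at positions where CTCF was mapped in other cells.

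The CTCF list was the longest of the 12, and its lowest −log10 q was 3.09. The other lists held between 230 peaks (HA) and 39713 peaks (RAD21, clone A2, DMSO), with lowest −log10 q values from 2 to 2.53. The background pileup behind the peaks was recovered from fold enrichment and −log10 p. Its lowest value in a list was 13.4 reads for CTCF and 1.77 to 4.05 reads for the other lists where it could be recovered. This value is a floor over the peaks of a list and not a read total. It could not be recovered for HA. For RAD21 of clone A2 the lowest pileup was 1.87 reads under DMSO, 3.16 at 4 h and 2.83 at 24 h. The D7 libraries gave 3.00, 4.05 and 3.07 reads in that order. Peak calls follow depth as well as occupancy, and the part of depth in the results below was not tested.

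Only a few isolated sites lay at a gene start, and these are the ones whose sequence can be read. Of 1452 isolated sites on chromosomes other than 8, 28 had their summit inside a promoter window of RefSeq, which runs from 250 bases before to 50 bases after a gene start on GRCh38.p14. The windows touched numbered 32. The letters CCNNNAGNNGGC, the core shared by many CTCF motifs, were searched on both strands of every window. They were present in 10 of these 32 windows, or 31.3% (Wilson interval 18.0% to 48.6%). They were present in 32.5% of 2761 windows with the summit of another CTCF site, in 8.69% of 32323 windows with no CTCF summit, and in 10.6% of all 35116 windows. The share at isolated sites therefore lay near that at other CTCF sites. The first 6 stretches below are shown because the CTCF summit lay within 20 bases of such a match, whose 12 letters are in capitals. Each line reads 5′ to 3′ on the strand of its gene.

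ZNF268, chr12:133181323-133181442 (+ strand): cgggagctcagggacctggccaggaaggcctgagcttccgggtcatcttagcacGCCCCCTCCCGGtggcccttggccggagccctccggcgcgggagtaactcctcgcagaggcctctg
LOC105371274, chr16:54633975-54634068 (+ strand): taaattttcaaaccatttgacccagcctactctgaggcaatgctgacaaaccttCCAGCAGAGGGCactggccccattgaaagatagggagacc
LOC105379102, chr5:101678735-101678854 (- strand): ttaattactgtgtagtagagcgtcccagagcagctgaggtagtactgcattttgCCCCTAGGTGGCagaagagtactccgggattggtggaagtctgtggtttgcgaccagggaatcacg
KLF8, chrX:55908124-55908243 (+ strand): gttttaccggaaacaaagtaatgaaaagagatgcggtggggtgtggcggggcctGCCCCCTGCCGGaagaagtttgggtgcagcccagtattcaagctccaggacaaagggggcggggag
OR2L13, chr1:247936978-247937097 (+ strand): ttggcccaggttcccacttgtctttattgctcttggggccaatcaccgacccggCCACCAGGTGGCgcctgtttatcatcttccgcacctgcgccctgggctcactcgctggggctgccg
GPD2, chr2:156436129-156436195 (+ strand): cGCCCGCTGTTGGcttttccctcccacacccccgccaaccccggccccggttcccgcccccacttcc

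The stretch at ZNF268, a zinc finger gene, held a match 3.5 bases from the summit of a CTCF peak with a fold enrichment of 57.4. RAD21 was called there at 7.32-fold in clone A2 DMSO, 7.45-fold in clone D7 DMSO and 5.16-fold in clone D7 at 4 h, and in no other RAD21 list. At LOC105371274, an uncharacterised RNA gene, CTCF stood at 30.3-fold and RAD21 was called in 5 of the 6 RAD21 lists. At LOC105379102, another uncharacterised RNA gene, RAD21 was called at 4 h of dTAGV-1 in both clones but in neither DMSO list. The match at KLF8, which encodes a Krüppel-like transcription factor, lay under a CTCF peak of 8.67-fold with no RAD21 call. The match at OR2L13, an olfactory receptor gene, lay under a CTCF peak of 7.37-fold with no call in any of the other 11 lists. At GPD2, which encodes a mitochondrial glycerol phosphate dehydrogenase, CTCF stood at 3.59-fold with the summit 17.5 bases from the match. RAD21 was called there at 4.56-fold in clone A2 DMSO and in the 3 lists of clone D7, at 4.14-fold in DMSO, 3.89-fold at 4 h and 5.30-fold at 24 h, with STAG1 and PDS5A peaks. A match to the same 12 letters thus stood beside RAD21 calls in 5 lists at one start and beside 0 calls at another.

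The next 4 stretches had the highest CTCF fold among the windows with no match and are shown with the CTCF summit at the middle. No letters are in capitals, since none matched.

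LOC107984469, chr12:38138814-38138933 (+ strand): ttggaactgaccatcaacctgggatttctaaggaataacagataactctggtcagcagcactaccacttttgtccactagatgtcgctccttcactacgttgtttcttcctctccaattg
GAS1RR, chr9:86948559-86948678 (+ strand): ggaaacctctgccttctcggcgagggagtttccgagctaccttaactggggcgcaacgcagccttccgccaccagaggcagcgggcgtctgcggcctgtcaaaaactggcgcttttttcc
MAN2A1-DT, chr5:109691142-109691261 (- strand): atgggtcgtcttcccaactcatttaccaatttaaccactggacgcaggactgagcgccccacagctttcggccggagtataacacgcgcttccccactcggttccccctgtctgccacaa
FGD6, chr12:95217525-95217644 (- strand): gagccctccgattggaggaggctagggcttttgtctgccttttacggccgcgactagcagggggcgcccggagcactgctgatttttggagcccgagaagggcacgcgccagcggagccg

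At LOC107984469, CTCF stood at 85.7-fold, above every site with a match, and RAD21 was called in all 6 lists, at 27.8-fold in clone A2 DMSO and 23.4-fold in clone D7 DMSO. At GAS1RR, an RNA gene, CTCF stood at 56.6-fold and RAD21 in 4 of 6 lists, at 8.58-fold in clone A2 DMSO and 5.93-fold in clone D7 DMSO. The start of MAN2A1-DT, a divergent RNA gene, carried CTCF at 45.6-fold and RAD21 in all 6 lists, at 34.5-fold in clone A2 DMSO and 26.7-fold in clone D7 DMSO. The start of FGD6, a protein-coding gene, carried CTCF at 35.8-fold and RAD21 in all 6 lists, at 35.4-fold in clone A2 DMSO and 26.4-fold in clone D7 DMSO. The absence of a match says only that these 12 letters were not in the window.

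Isolated sites were, as a class, low and narrow CTCF peaks. Their CTCF fold enrichment had a median of 9.38 (quartiles 5.15 and 23.4, range 2.56 to 139), against a median of 15.9 at the other CTCF sites (quartiles 5.98 and 48.0). Of the 1525, 488 fell in the lowest quartile of the whole CTCF list by fold, 485 in the next, 413 in the third and 139 in the highest. The median peak width was 579 bp against 732 bp. The nearest other CTCF summit lay at a median of 138 kb, with 362 sites over 200 kb and 7 sites over 1 Mb from any other, against 10.6 kb for the other CTCF sites.

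They were unevenly spread over the chromosomes. The X chromosome held the highest share, with 120 of its 1839 CTCF peaks isolated (6.53%), followed by chromosome 13 with 86 of 1582 (5.44%) and chromosome 21 with 30 of 590 (5.08%). Chromosome 19, which is dense in genes, held the lowest share, with 18 of 2013 (0.894%), and chromosome 20 held 14 of 1498 (0.935%). Chromosome 2 held the largest number, 146 of 4779.

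The 100 kb limit cut a gradual change in spacing. The 353 sites just short of it, 90 to 100 kb from the nearest summit, had a median CTCF fold of 11.1, and 56.9% carried RAD21 in clone A2 DMSO. The 280 sites just past it, at 100 to 110 kb, had a median of 11.3, and 56.1% carried it. PDS5A was called at 22.4% of the sites short of the limit and at 22.5% of those past it. Farther out the values were lower. Among sites over 200 kb from the nearest summit the median CTCF fold was 6.92, RAD21 in clone A2 DMSO was called at 26.2% and PDS5A at 8.01%, and WAPL at 0 of 362 sites, which allows a share of up to 0.829%, taken as 3 counts of the total rather than from a Wilson interval. The sites at 100 to 200 kb stood at 10.6-fold, 51.2%, 17.6% and 1.89% in the same order. The isolated class thus joins 1163 sites at 100 to 200 kb, with values nearer those below the limit, and 362 more remote sites with fewer cohesin peaks.

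**Figure D1:**
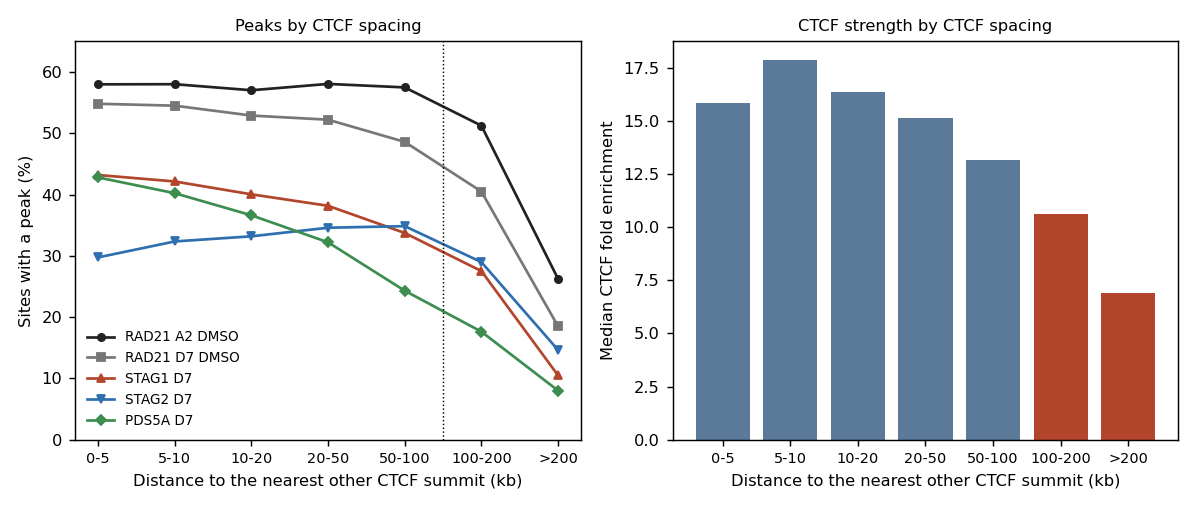
Share of CTCF sites with a peak of RAD21 (clones A2 and D7, DMSO), STAG1, STAG2 or PDS5A (left, %) and median CTCF fold enrichment (right) by the distance to the nearest other CTCF summit in kb. Sites right of the dotted line and the red bars are the isolated sites; RAD21 in clone A2 DMSO was near 58% in the bins up to 100 kb, 51.2% at 100 to 200 kb and 26.2% beyond, while PDS5A was lower in each wider bin, from 42.8% to 8.01%.

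RAD21 marks where cohesin was found at a site. In clone A2 under DMSO, 691 of the 1525 isolated sites carried a RAD21 peak overlapping by at least 1 bp, or 45.3% (Wilson interval 42.8% to 47.8%), where 57.4% of all CTCF sites did. The share at the other CTCF sites was 57.8%, a difference of -12.4 points (95% Newcombe interval -15.0 to -9.91). In clone D7 under DMSO, 538 isolated sites carried RAD21, or 35.3% (32.9% to 37.7%), where 52.8% of all CTCF sites did. The difference from the other CTCF sites was -18.0 points (-20.4 to -15.5). Both untreated clones thus had RAD21 at a smaller share of isolated sites, beyond counting error.

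The clones differed from each other more at isolated sites. RAD21 was called in both DMSO lists at 483 isolated sites, 31.7% of them against a background of 48.3%, and in neither at 779 (51.1%, background 38%). Of the 691 sites with RAD21 in clone A2, 69.9% also had it in clone D7, where the background was 84%. The share at the other CTCF sites was 84.3%, a difference of -14.4 points (-18.0 to -11.1). In the other direction, 89.8% of the 538 sites in clone D7 had RAD21 in clone A2, where the background was 91.4%. A RAD21 peak in clone A2 alone among the DMSO lists was found at 208 isolated sites (13.6%, background 9.17%) and in clone D7 alone at 55 (3.61%, background 4.55%). The surplus of calls in 1 clone was thus on the side of clone A2. The lowest background pileup of its DMSO list was below that of clone D7. Whether clone or library set this surplus cannot be told apart.

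Where RAD21 was present, it sat on the CTCF summit. The median distance between the RAD21 and CTCF summits was 22 bp at isolated sites in clone A2 DMSO, equal to that at the other CTCF sites, and 28 bp in clone D7 DMSO against 26 bp. Within 200 bp lay 98.1% of the RAD21 summits of clone A2 DMSO at isolated sites. The RAD21 peaks themselves were lower than at other CTCF sites but typical of their own list. Their median fold enrichment in clone A2 DMSO was 13.6, against 16.4 at the other CTCF sites and 13.2 over the whole RAD21 list. In clone D7 DMSO the medians were 10.5, 12.9 and 9.78.

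STAG1 and STAG2 were called at like numbers of isolated sites, whereas STAG1 led at the other CTCF sites. STAG1 peaks overlapped 358 isolated sites, or 23.5% (21.4% to 25.7%), where 40% of all CTCF sites did, a difference from the other CTCF sites of -17.0 points (-19.1 to -14.8). STAG2 peaks overlapped 390, or 25.6% (23.4% to 27.8%), where 32.3% of all CTCF sites did, a difference of -6.91 points (-9.07 to -4.63). At the other CTCF sites 40.5% carried STAG1 and 32.5% STAG2, so the STAG1 share was the one that lay farther below at isolated sites.

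Sites with only 1 of the STAG subunits differed in the same way. STAG1 without STAG2 was called at 105 isolated sites (6.89%, background 14.7%), a difference from the other CTCF sites of -8.01 points (-9.22 to -6.60). STAG2 without STAG1 was called at 137 (8.98%, background 6.98%), a difference of 2.05 points (0.704 to 3.61). RAD21 in both DMSO lists with neither STAG subunit was found at 96 isolated sites (6.30%, background 6.97%). Both subunits were called at 253 isolated sites (16.6%, background 25.3%), and neither at 1030 (67.5%, background 53%). The lists were made with different antibodies. The lowest background pileup was 1.77 reads for STAG1 against 3.14 for STAG2. The part of antibody and pileup in this order was not tested.

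PDS5A, the cohesin regulator, showed the widest gap of the 11 lists. Its peaks overlapped 234 isolated sites, or 15.3% (13.6% to 17.2%), where 36.6% of all CTCF sites carried one. The other CTCF sites stood at 37.2%, and the difference was -21.8 points (-23.6 to -19.9). PDS5A peaks at isolated sites had a median fold of 7.37 against 10.3 at the other CTCF sites. Their summits also lay farther from the CTCF summit, at a median of 51 bp against 28 bp.

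WAPL peaks were rare throughout. They overlapped 22 isolated sites, or 1.44% (0.955% to 2.17%), where 4.46% of all CTCF sites did, a difference from the other CTCF sites of -3.09 points (-3.61 to -2.34). PDS5A was also called at 18 of these 22 sites. WAPL and PDS5A together thus marked 1.18% of isolated sites, where 4.12% of all CTCF sites carried both. HA was called at 2 isolated sites (0.131%, background 0.26%), and its difference of -0.133 points had an interval that held 0 (-0.238 to 0.215). The list of 230 HA peaks was too short to compare the classes.

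Many isolated sites carried CTCF alone. No peak of any of the other 11 lists overlapped 654 of them (42.9%, background 29.9%), a difference from the other CTCF sites of 13.3 points (10.8 to 15.8).

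**Figure D2:**
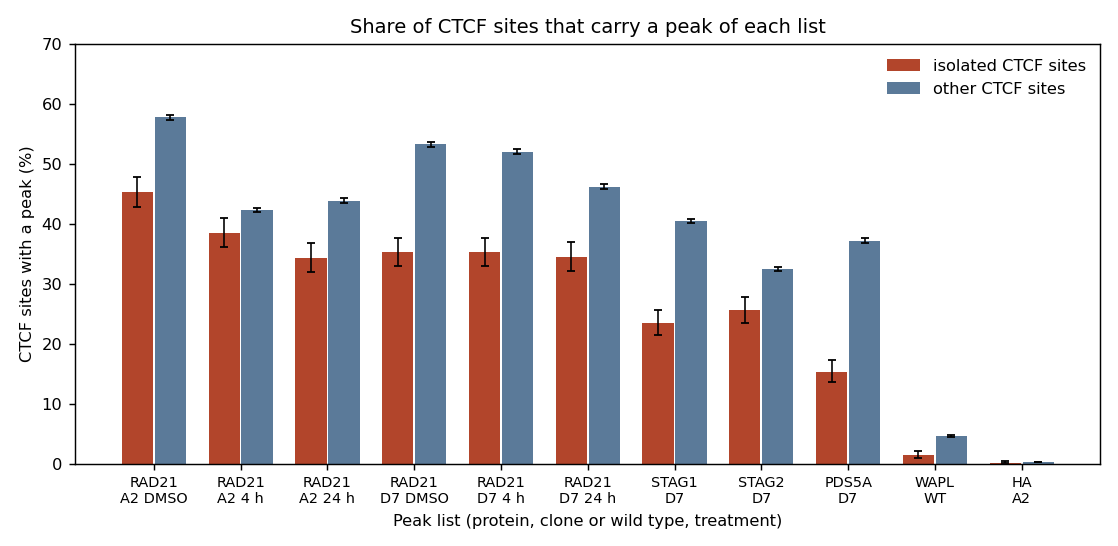
Share of the 1525 isolated (red) and 57613 other (blue) CTCF sites that carried a peak of each of the 11 other lists, in %. Bars start at 0, and error bars are 95% Wilson intervals for counting error. The isolated bar is lower in each list; for HA the intervals overlap, and the widest gap is that of PDS5A, at 15.3% against 37.2%.

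The lower CTCF signal moved with these gaps, so isolated and other sites were compared within quartiles of CTCF fold. For RAD21 in clone A2 DMSO the shares rose from 9.22% in the lowest quartile to 98.6% in the highest at isolated sites, and from 15.5% to 96.9% at other sites. Weighted to the CTCF quartiles of the isolated sites, the difference was -2.09 points (-4.04 to -0.142), in place of -12.4 points. For clone D7 DMSO it was -7.34 points (-9.29 to -5.40), in place of -18.0 points. The greater part of the RAD21 gap in both clones thus went with CTCF peak height.

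PDS5A kept a wide gap at like CTCF height, and STAG2 changed direction. The weighted PDS5A difference was -12.4 points (-14.1 to -10.7). In the highest CTCF quartile PDS5A was called at 78 of 139 isolated sites, or 56.1%, against 76.6% of other sites, a difference of -20.5 points (-28.8 to -12.5). STAG2 was called at 118 of the same 139 sites, or 84.9%, against 75.3%, a difference of 9.60 points (2.67 to 14.7). Over all quartiles the weighted STAG2 difference was 3.75 points (2.03 to 5.46). The interval held 0 in the lowest CTCF quartile (0.128 points, -0.894 to 1.88) and the next (2.07 points, -0.292 to 5.06). In the third quartile the difference was 8.01 points (3.13 to 12.9). Isolated sites thus carried STAG2 more often than other sites, beyond counting error, in the third and highest CTCF quartiles. The weighted STAG1 difference remained negative, at -5.99 points (-7.79 to -4.20). WAPL had a weighted difference of -0.412 points (-0.986 to 0.163), and 18 of its 22 isolated sites lay in the highest CTCF quartile.

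Gene distance also moved with the gaps. Isolated and other sites were compared again among those with no protein-coding gene within 100 kb, an added comparison. The PDS5A difference there was -8.24 points (-10.6 to -5.54), in place of -21.8 points, and the STAG1 difference was -8.40 points (-11.4 to -5.11), in place of -17.0 points. The RAD21 differences there were -10.7 points in clone A2 DMSO and -11.2 points in clone D7 DMSO. The STAG2 difference there was -7.97 points (-11.2 to -4.53).

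Only sites with RAD21 in clone D7 DMSO, the clone of the STAG and PDS5A libraries, were taken next. This also leaves out the 208 isolated sites with RAD21 in clone A2 alone among the DMSO lists. Among these 538 isolated sites STAG1 was called at 338 (62.8%, background 72.9%), STAG2 at 318 (59.1%, background 55.7%), PDS5A at 207 (38.5%, background 62.5%) and WAPL at 22 (4.09%, background 8.38%). The difference from the other CTCF sites with RAD21 was -10.3 points for STAG1 (-14.4 to -6.25), 3.49 points for STAG2 (-0.751 to 7.60), -24.5 points for PDS5A (-28.5 to -20.2) and -4.37 points for WAPL (-5.78 to -2.32). Weighted to the isolated sites' quartiles of RAD21 fold, the differences were -7.14 points for STAG1 (-10.5 to -3.74), 8.71 points for STAG2 (5.18 to 12.2), -21.0 points for PDS5A (-24.8 to -17.2) and -1.31 points for WAPL (-2.91 to 0.294). Isolated sites with RAD21 in clone D7 DMSO thus carried PDS5A and STAG1 less often than other such sites, with and without weighting. The STAG2 interval held 0 before weighting and lay above 0 after it, and the WAPL interval held 0 after it.

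**Figure D3:**
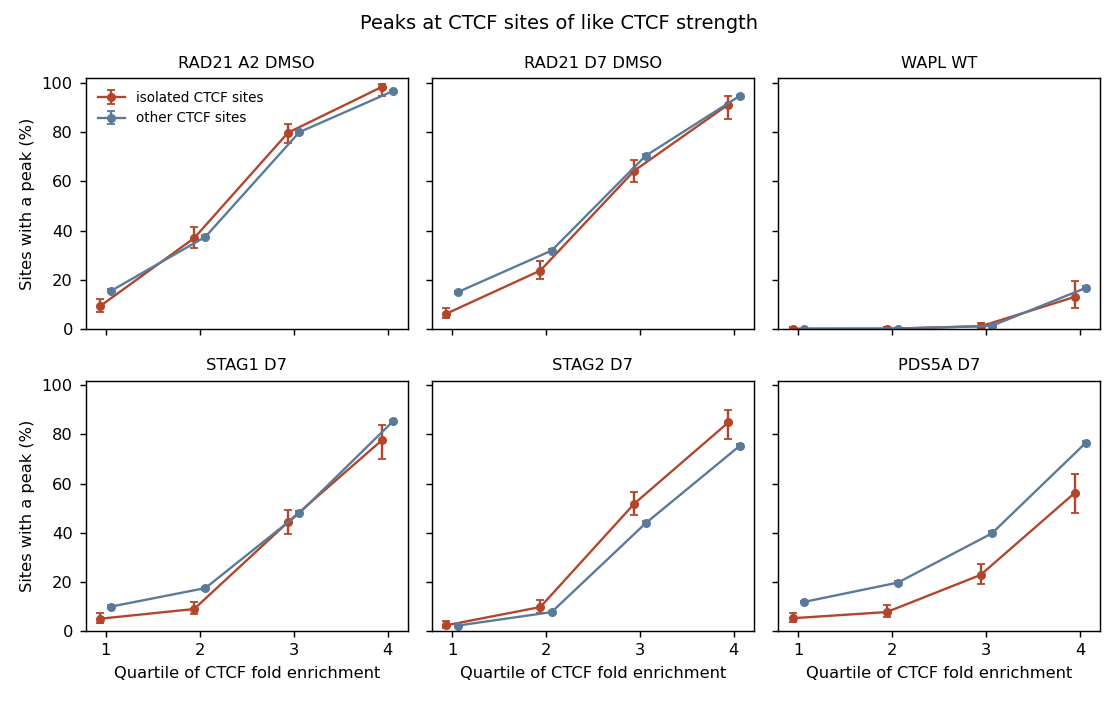
Share of isolated (red) and other (blue) CTCF sites with a peak of 6 lists (%), by quartile of CTCF fold enrichment over the whole CTCF list. Points are shares with 95% Wilson intervals for counting error. The curves lie close for RAD21 in clone A2 DMSO, while in the highest quartile the isolated point is above the other for STAG2 (84.9% against 75.3%) and below it for PDS5A (56.1% against 76.6%).

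The 3 isolated sites of highest CTCF fold all carried cohesin in every RAD21 list. The first, at chr13:106917639-106918701 inside LOC124903248, had CTCF at 139-fold. Its RAD21 stood at 53.6, 21.1 and 17.9-fold in clone A2 at DMSO, 4 h and 24 h, and at 47.2, 60.6 and 31.2-fold in clone D7. STAG1 stood at 32.1, STAG2 at 15.6 and PDS5A at 56.9-fold, with no WAPL peak. This site was therefore rich in PDS5A and also lay within 1 kb of a gene start.

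The second, at chr7:73451452-73452518 inside BAZ1B, a chromatin remodelling gene, had CTCF at 128-fold. Its RAD21 stood at 27.3, 12.1 and 17.2-fold in clone A2 and at 22.1, 12.3 and 27.9-fold in clone D7. STAG1 stood at 17.8, STAG2 at 30.5, PDS5A at 5.07 and WAPL at 11.3-fold, the highest WAPL fold among isolated sites outside chromosome 8. The third, at chr10:45464599-45465662 inside MARCHF8, which encodes a membrane-bound ubiquitin ligase, had CTCF at 118-fold, PDS5A at 94.9-fold and RAD21 at 25.8 to 89.2-fold over the 6 lists. The third site had no WAPL peak.

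The most remote sites were low CTCF peaks with little else. The sites at chr21:8695952-8696442, chr22:11492538-11492925 and chr3:6799313-6799675 had CTCF at 6.87, 4.80 and 4.59-fold and no peak in the other 11 lists. The first and the second had their nearest CTCF summit 5424 kb and 5282 kb away, and no CTCF summit before them on the chromosome. The site on chromosome 3 lay 1373 kb and 1312 kb from its neighbours and 61609 bp from GRM7, a metabotropic glutamate receptor gene. Unsequenced gaps were not removed from these distances.

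Among sites with both neighbours under 1 Mb away, the most remote were chr14:43894564-43894931, 609401 bp from the sperm gene FSCB, chrX:33434253-33435065, 95294 bp from DMD, the dystrophin gene, and chr18:71784805-71785133, 751695 bp from the synaptic gene CBLN2. Only the site near DMD carried cohesin. Its CTCF stood at 22.2-fold and its RAD21 at 8.10-fold in clone A2 at 24 h, 5.50-fold in clone D7 DMSO and 4.55-fold in clone D7 at 4 h, with no peak in the other RAD21 lists.

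Some isolated sites in the third quartile of the CTCF list by fold (15.6 to 47.3) carried no cohesin peak. In the highest quartile, 137 of 139 isolated sites carried RAD21 in clone A2 DMSO. The highest CTCF folds among sites with none of the other 11 lists were 46.2 at chrX:84339280-84340127 inside the homeobox gene HDX, 33.5 at chr5:42422967-42423789, 13 bp from the growth hormone receptor gene GHR, and 32.4 at chr15:28227196-28228030 inside HERC2, which encodes a ubiquitin ligase. The highest STAG1 fold among sites with STAG1 and no STAG2 was 19.9, at chr13:108508086-108508953 inside the myosin gene MYO16, where CTCF stood at 39.8-fold and RAD21 was called in all 6 lists. The highest STAG2 fold among sites with STAG2 and no STAG1 was 44.2, at chr5:24109841-24110644, 376880 bp from the cadherin gene CDH10. There CTCF stood at 56.1-fold and RAD21 at 41.0-fold in clone A2 DMSO, 45.9-fold at 4 h, and in clone D7 at 5.31-fold at 4 h and 40.7-fold at 24 h, with no RAD21 peak in clone A2 at 24 h or in clone D7 DMSO.

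The question of the dTAGV-1 arms was which cohesin peaks remain after NIPBL is degraded. The number of isolated sites with RAD21 in clone A2 was 691 in DMSO, 587 at 4 h (38.5%, background 42.2%) and 524 at 24 h (34.4%, background 43.6%). The D7 numbers were 538 under DMSO, 538 at 4 h (35.3%, background 51.6%) and 526 at 24 h (34.5%, background 45.9%). The number in clone A2 was thus lower after treatment, while that in clone D7 was nearly level. The whole RAD21 lists had 39713, 25763 and 28589 peaks in clone A2, and those of clone D7 had 37566, 39059 and 30114.

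Retention is the share of sites with a RAD21 peak in DMSO that also had one after dTAGV-1 in the same clone. In clone A2 at 4 h, 544 of 691 isolated sites retained RAD21, or 78.7% (75.5% to 81.6%), where 71.4% of all CTCF sites with RAD21 did. The difference from the other CTCF sites was 7.47 points (4.23 to 10.4). In clone A2 at 24 h, 458 retained it, or 66.3% (62.7% to 69.7%), background 70.9%, a difference of -4.76 points (-8.40 to -1.30). Isolated sites in clone A2 thus stood above the other sites at 4 h and below them at 24 h.

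In clone D7 at 4 h, 455 of 538 isolated sites retained RAD21, or 84.6% (81.3% to 87.4%), background 85.9%, a difference of -1.40 points (-4.72 to 1.43). At 24 h, 431 retained it, or 80.1% (76.5% to 83.3%), background 77.4%, a difference of 2.81 points (-0.805 to 6.00). Neither difference in clone D7 lay outside counting error, and both had the opposite sign to that of clone A2 at the same time. No test was made of the clones against each other.

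RAD21 height in DMSO went with retention in both classes. In clone A2 at 4 h, the quartile of lowest DMSO fold retained RAD21 at 73 of 189 isolated sites (38.6%) against 22.4% of other sites, and the next quartile at 205 of 235 (87.2%) against 68.0%. The third quartile retained it at 161 of 162 (99.4%) against 94.9%, a difference of 4.45 points (1.62 to 5.16). The highest quartile retained it at 105 of 105 isolated sites (Wilson interval from 96.5%) against 99.2%, which left little room for a difference. Weighted to the isolated sites' RAD21 quartiles, the difference in clone A2 was 12.1 points at 4 h (9.67 to 14.6) and -0.833 points at 24 h (-4.03 to 2.37). In clone D7 it was -0.182 points at 4 h (-2.92 to 2.56) and 5.16 points at 24 h (2.05 to 8.27). The higher retention of clone A2 at 4 h was thus widest in the lowest and next RAD21 quartiles and smaller in the third. The lower retention at 24 h was within counting error at like RAD21 height.

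Gene distance and spacing moved with retention in clone A2. At 4 h, among sites with no protein-coding gene within 100 kb, isolated sites retained 81.0%. The difference from other such sites was -0.643 points (-5.29 to 3.37), in place of 7.47 points. Among sites more than 20 kb from the nearest CTCF summit the difference at 4 h was 3.56 points (0.245 to 6.57). At 24 h the difference in clone A2 among sites with no gene within 100 kb was -7.52 points (-12.9 to -2.51). With isolation set at 200 kb it was -20.5 points (-30.4 to -10.6), with 50.5% retained, and with isolation set at 50 kb it was -1.73 points (-3.43 to -0.0693).

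**Figure D4:**
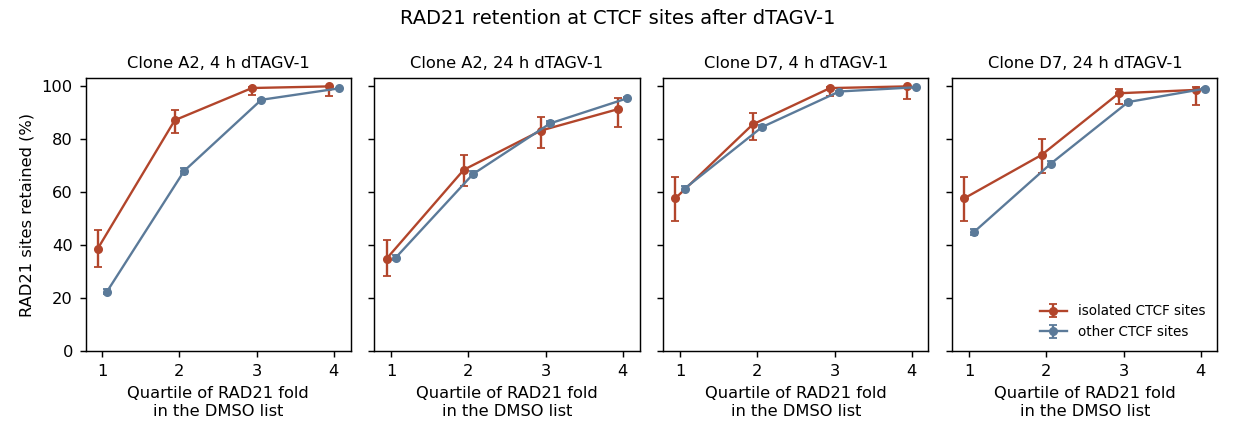
Share of CTCF sites with a RAD21 peak in DMSO that kept one after dTAGV-1 (%), by quartile of RAD21 fold enrichment in the DMSO list, for isolated (red) and other (blue) sites. Points carry 95% Wilson intervals for counting error. In clone A2 at 4 h the isolated point is above the other in the lowest quartile (38.6% against 22.4%) and the next (87.2% against 68.0%); in clone D7 at 24 h it is above in the lowest (57.8% against 44.9%).

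Across both clones, RAD21 was called in all 6 lists at 328 isolated sites (21.5%, background 31.7%) and in none at 680 (44.6%, background 32.1%). RAD21 in both DMSO lists but in none of the 4 dTAGV-1 lists was found at 9 isolated sites (0.590%, background 1.97%). RAD21 in both DMSO lists and in 1 to 3 dTAGV-1 lists was found at 146 (9.57%, background 14.6%), and RAD21 in a dTAGV-1 list with none in DMSO at 99 (6.49%, background 5.95%). Complete loss in both clones was thus the rarest of these patterns.

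Calls that appeared after treatment went in opposite ways in the clones at 4 h. Of 834 isolated sites without RAD21 in clone A2 DMSO, 43 had it at 4 h (5.16%, background 2.77%) and 66 at 24 h (7.91%, background 6.74%). Of 987 without RAD21 in clone D7 DMSO, 83 had it at 4 h (8.41%, background 13.1%) and 95 at 24 h (9.63%, background 10.7%). The difference from other CTCF sites at 4 h was 2.46 points in clone A2 (1.14 to 4.19) and -4.83 points in clone D7 (-6.46 to -2.89).

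The sites of highest RAD21 fold among those in all 6 lists lay at or near genes. The site at chr12:22335020-22336428, 1004 bp from ST8SIA1, which encodes a ganglioside sialyltransferase, had RAD21 at 95.8, 53.7 and 97.0-fold in clone A2 and 109, 137 and 131-fold in clone D7 at DMSO, 4 h and 24 h. The site at chr1:184805322-184806205 inside NIBAN1, a stress-response gene, had 91.8, 39.2 and 186-fold in clone A2 and 64.7, 168 and 128-fold in clone D7. The site at chr9:115013778-115015874, 4337 bp from TNC, the tenascin C matrix gene, had 88.7, 53.7 and 137-fold in clone A2 and 68.7, 104 and 92.8-fold in clone D7. These folds are the authors' values within each list, so their differences between lists are not read as a change in RAD21.

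Outside chromosome 8, the sites with RAD21 in both DMSO lists and none after dTAGV-1 had RAD21 of at most 9.24-fold in clone A2 DMSO. The highest was chrX:120663928-120664660, 34253 bp from the glycosylation chaperone gene C1GALT1C1, which stood at 4.56-fold in clone D7 DMSO. Next came chr1:166478685-166479747, 312222 bp from FAM78B, at 8.63 and 5.00-fold, and chr18:20971098-20972453 inside the kinase gene ROCK1, at 7.90 and 5.50-fold. CTCF at the site on chromosome 1 was strong, at 63.0-fold, while the other two stood at 11.1 and 23.0-fold.

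WAPL was highest, after BAZ1B, at chr4:156475054-156475838, 284996 bp from the growth factor gene PDGFC, and at chr2:211745080-211745914 inside ERBB4, a receptor tyrosine kinase gene. The first had WAPL at 10.8-fold, CTCF at 42.4-fold, STAG2 at 34.0-fold and PDS5A at 3.68-fold. Its RAD21 stood at 56.0-fold in clone A2 DMSO and 70.4-fold at 4 h with no peak at 24 h, and at 13.2, 4.08 and 37.6-fold in clone D7. The site in ERBB4 had WAPL at 10.3-fold, CTCF at 72.5-fold and RAD21 at 33.7 to 49.1-fold over all 6 lists.

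Isolated sites lay in gene-poor DNA. The summit was inside a protein-coding gene at 509 of 1525 (33.4%, Wilson interval 31.1% to 35.8%), where 50.9% of all CTCF summits were, a difference from the other CTCF sites of -18.0 points (-20.4 to -15.6). No protein-coding gene was found within 100 kb of 762 sites (50.0%, background 12.1%), a difference of 38.9 points (36.4 to 41.4). Within 1 kb of a gene start lay 37 of 1452 (2.55%, background 9.85%), a difference of -7.50 points (-8.24 to -6.52). Outside genes, the nearest protein-coding gene was a median of 242 kb away against 24.4 kb for the other CTCF sites.

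The genes that did host isolated sites were long. Their median length, counted per site, was 448 kb (quartiles 219 and 844 kb), against 110 kb for the other CTCF sites. Of 19974 protein-coding genes, 413 hosted at least 1 isolated site (2.07%), 74 at least 2 and 19 at least 3. Among the 41 neuronal and adhesion genes of great length, 30 hosted one (73.2%, median length 1195 kb). Among all 69 genes of at least 1000 kb, 50 did (72.5%), so the share in the neuronal list was near theirs. Many genes of the neuronal list are themselves among these 69, so the shares are not independent. Glutamate receptor genes (median length 307 kb) hosted one in 6 of 27 and cadherins (140 kb) in 5 of 23. Zinc finger genes (23.7 kb) hosted one in 10 of 517 and olfactory receptors (2.94 kb) in 4 of 392. The median length of all protein-coding genes was 24.2 kb. None of the 18 genes listed for retinal pigment epithelium, with a median length of 15.6 kb, hosted an isolated site.

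Single giant genes differed in how much cohesin their isolated sites carried. RBFOX1, a neuronal splicing factor gene of 2474 kb, held the most, with 6 isolated sites among the 10 CTCF summits inside it. None of the 6 carried RAD21 in either DMSO list. CNTNAP2, a neurexin-family gene, held 3, also with RAD21 at 0 of 3 in both DMSO lists. CTCF at the 6 sites of RBFOX1 was low, at 3.13 to 7.02-fold. Another isolated peak overlapped the start of RBFOX1, but its summit lay just outside the gene, so it was not counted. It had a higher CTCF fold than each of the 6 and carried RAD21 in all 6 RAD21 lists, with STAG1 and PDS5A. The absence of RAD21 thus holds only for the isolated summits inside RBFOX1. The lowest CTCF quartile ended at 5.95-fold. Of the isolated sites in it, 9.22% carried RAD21 in clone A2 DMSO and 6.15% in clone D7 DMSO. The 5 isolated sites of LRP1B, an LDL receptor family gene, included 3 with RAD21 in clone A2 DMSO and 4 in clone D7 DMSO. The 5 of CDH12, a cadherin gene, included 3 in each clone, and the 3 of GPC5, a glypican gene, included 3 in clone A2 and 2 in clone D7. The 5 of SPAG16, a gene of the sperm axoneme, included 4 in clone A2 and 1 in clone D7. Expression of these genes was not measured here, and the part of CTCF height in these counts was not tested.

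RAD21 shares of isolated sites were lower inside genes than outside them, beyond counting error only in clone A2 after dTAGV-1. In clone A2 DMSO RAD21 was called at 44.0% of the 509 inside genes and at 46.0% of the 1016 outside, a difference of -1.96 points (-7.20 to 3.35). At 4 h the difference was -5.58 points (-10.6 to -0.403) and at 24 h it was -5.87 points (-10.7 to -0.819). The clone D7 differences lay between -3.71 and -2.53 points, and their intervals held 0. PDS5A was called at 93 of the 762 with no gene within 100 kb (12.2%, 10.1% to 14.7%). It was called at 141 of the 763 with one (18.5%, 15.9% to 21.4%). Over all CTCF sites, with or without a gene nearby, the share was 36.6%. The isolated sites near a gene also had higher CTCF, at a median of 10.0-fold against 8.66-fold. The part of CTCF height was not tested. The PDS5A difference inside minus outside genes was 2.33 points, with an interval that held 0 (-1.46 to 6.38). The 37 sites within 1 kb of a gene start resembled other CTCF sites at gene starts within wide intervals. STAG1 was called at 20 of them (54.1%, 38.4% to 69.0%, background 55.2% of all CTCF sites at gene starts), PDS5A at 19 (51.4%, 35.9% to 66.6%, background 62.3%) and STAG2 at 5 (13.5%, 5.91% to 28.0%, background 14.3%). The differences from the 5528 other CTCF sites at gene starts were -1.19 points for STAG1 (-16.9 to 13.8), -11.0 points for PDS5A (-26.5 to 4.23) and -0.832 points for STAG2 (-8.49 to 13.7). More STAG1 and PDS5A than STAG2 calls were thus found at gene starts in both classes. In clone A2, RAD21 was called at 21 of the 37 sites in DMSO (background 59.2%). At 4 h it was called at 10 (27.0%, other CTCF sites at gene starts 21.5%) and at 24 h at 15 (40.5%, others 32.8%). In clone D7 the counts were 22 in DMSO (background 62.6%) and 22 at 4 h (59.5%, others 65.5%). At 24 h clone D7 had 16 (43.2%, others 41.9%). In each of the 6 RAD21 lists the difference from the other sites had an interval that held 0. WAPL was called at 0 of the 37, which allows a share of up to 8.11% by the same 3 counts.

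The strongest CTCF peaks at gene starts, after the site inside LOC124903248, were at ATP2C1, the gene of a Golgi calcium pump, and at ZNF268. The site at chr3:130892548-130894713 in ATP2C1 had CTCF at 74.4-fold. Its RAD21 stood at 23.0, 12.2 and 11.3-fold in clone A2 and at 13.2, 7.34 and 16.0-fold in clone D7, with STAG2 at 11.6-fold, STAG1 at 3.44-fold and PDS5A at 2.73-fold. The site of ZNF268, chr12:133180971-133181763, whose promoter stretch is printed above, had PDS5A at 5.17-fold and no STAG1 or STAG2 peak.

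The 100 kb on either side of an isolated site holds no other CTCF summit by the rule, so peaks there lie away from CTCF. These flanks covered 290.6 Mb after merging. Cohesin peaks without CTCF were sparse in them. RAD21 in clone A2 DMSO had 271 such peaks, or 0.933 per Mb (95% exact Poisson interval 0.825 to 1.05), against 1.90 per Mb over the 2941 Mb of the chromosomes. RAD21 in clone D7 DMSO had 291, or 1.00 per Mb (0.890 to 1.12), against 2.16. The flanks thus held RAD21 away from CTCF at a lower density than the genome in both clones. They are also gene-poor, and the part of gene density was not tested.

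The other lists followed in the same direction by unequal amounts. STAG1 stood at 0.461 per Mb in the flanks (0.386 to 0.546) against 1.12 over the genome, and PDS5A at 1.14 (1.02 to 1.26) against 2.46. STAG2 stood at 0.850 per Mb (0.747 to 0.963) against 1.11, the closest to the genome of these 3 proteins. After dTAGV-1, RAD21 in the flanks stood at 0.179 per Mb in clone A2 at 4 h (52 peaks, 0.134 to 0.235), where the genome stood at 0.186. It stood at 0.582 per Mb at 24 h against 0.901 over the genome. The clone D7 densities were 1.16 per Mb at 4 h against 2.89 over the genome, and 0.492 at 24 h against 0.952. WAPL had 2 peaks in all flanks and HA 3, too few to compare.

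**Figure D5:**
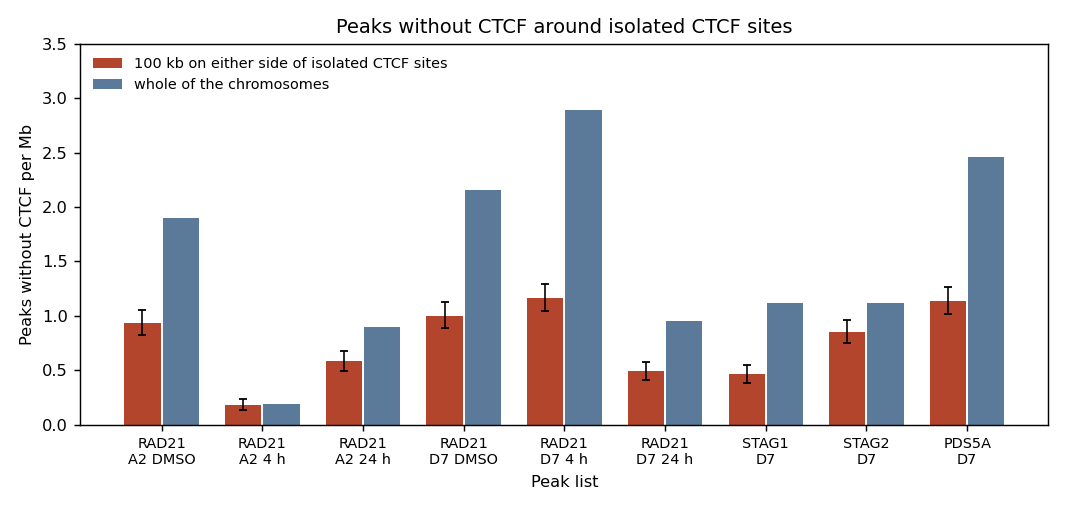
Peaks without CTCF per Mb within 100 kb of isolated CTCF sites (red, with exact 95% Poisson intervals for counting error) and over the whole of the chromosomes (blue), for 9 lists. The red bar is the lower in each list drawn, and for RAD21 in clone A2 at 4 h the values are close, at 0.179 and 0.186; WAPL and HA, with 2 and 3 peaks, are not drawn.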

How the data were processed

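ChIP-seq of hTERT RPE-1 cells gave 12 deposited peak lists in narrowPeak layout, 1 per library and none on pooled libraries. Per the submitters' processing notes, which give no order or versions, the tools included BWA, Picard, SAMtools, bedtools, deepTools and MACS2, and the builds were hg38 and mm10. The lists held human chromosomes with hg38 names. Fold enrichment at the summit is a ratio the authors deposited, and the next columns hold p and then q as −log10 values the authors deposited. The score is 10 times the −log10 q as a whole number in the deposited lists, except for 5 peaks in 1 list. These values were used only within their own list. Read totals and the spike-in were not used here.

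Isolation, overlap (at least 1 bp), shares with Wilson and Newcombe intervals, and shares within 4 quartiles were computed with Python 3.11.15, pandas 2.3.3, NumPy 2.4.6 and SciPy 1.17.1. The interval functions and the isolation rule were tested on simulated data. Genes and promoter windows came from RefSeq tables of GRCh38.p14, with 15813 of 19974 protein-coding genes matched to a window. The promoter table used here held no window on chromosome 8. Intervals cover counting error only: sites of 1 list are not replicates, and overlap also follows peak width and depth.

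The members, gene lists and comparisons were chosen with earlier results of these data known. Named sites, on chromosomes other than 8, were the 3 with the highest CTCF fold, the 3 farthest from another CTCF summit with and without neighbours over 1 Mb away, and the 3 with the highest RAD21 fold in clone A2 DMSO among those in all 6 RAD21 lists and among those in both DMSO lists only. Also named were the 3 with the highest CTCF fold among sites in none of the 11 lists and among sites at gene starts, the 3 with the highest WAPL fold, and the site with the highest STAG1 or STAG2 fold where only that subunit was called. Promoter stretches and host genes were picked after their values were seen. Alternatives were other isolation distances (50 and 200 kb), stricter −log10 q of at least 10 for CTCF or for the other lists, autosomes only, summits within 200 bp, lists of equal length, weighting by quartile and a gene start window of 2.5 kb. Limits to sites far from genes or from other CTCF summits, the comparison at gene starts and that inside against outside genes were added after seeing the data.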

Additional observations from a re-analysis of the deposited data

Results flagged for a closer look

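RAD21 retention at isolated sites relative to other CTCF sites had opposite signs in the clones at both times. At 4 h of dTAGV-1 the difference was 7.47 points in clone A2 and -1.40 points in clone D7. At 24 h it was -4.76 points in clone A2 and 2.81 points in clone D7. Both intervals of clone D7 held 0, each clone had 1 library per time, and the contrast of the clones was not tested.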

How the results depend on the processing

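Of 151 alternative values for 20 results, 133 kept their direction and their side of 0 by interval. The isolation distance gave 5844 sites at 50 kb and 362 at 200 kb. The other CTCF list choices gave 1529 isolated sites at −log10 q of at least 10 and 1405 on autosomes. RAD21 retention was the least stable. Its difference in clone A2 at 4 h was -1.94 points with isolation at 200 kb and -0.643 points among sites with no gene within 100 kb, and at 24 h it was -20.5 points with isolation at 200 kb, -1.73 points at 50 kb and -0.833 points when weighted by RAD21 quartile. In clone D7 at 4 h it was -2.84 points with isolation at 50 kb and 1.58 points at −log10 q of at least 10 in the other lists. In clone D7 at 24 h it was -4.23 points with isolation at 200 kb, -0.388 points among sites over 20 kb from the nearest summit, -0.982 points among sites with no gene within 100 kb, 3.28 points with isolation at 50 kb, 6.91 points with lists of equal length, 4.65 points at the stricter q and 5.16 points when weighted. The STAG2 share differed by 0.132 points with isolation at 50 kb and 3.75 points when weighted by CTCF quartile, and the WAPL share by -0.412 points when weighted. Flank minus genome density of STAG2 was 0.219 per Mb with isolation at 50 kb and -0.0541 at the stricter q, and that of WAPL was 0.00174 at the stricter q. The causes were not tested. The WAPL and HA values rest on 22 and 2 isolated sites, so their intervals are wide relative to the values. No paired analysis was possible because each group had 1 library and the labels carry no replicate numbers.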
